A study of Mus musculus with 15 samples.

Results

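9 genes of the Hedgehog signalling pathway were examined in cultured adult neural stem cells (aNSCs), out of 53801 genes in the count table. The genes were Dhh, Disp2, Ptch1, Hhip, Smo, Sufu, Gli1, Gli2 and Gli3, which cover a ligand, its release, its receptors, the signal transducers and the transcription factors at the end of the pathway. The 9 genes were chosen from the measured counts of these same libraries, with the changes of several of them between the groups already known. Their levels and fold changes are therefore given as a description, and no test on them is used as support. RNA-seq was carried out on 15 cultures of subventricular zone cells grown in suspension, each started from a C57BL6/J-129sv mouse aged 2 months. All cultures carried Rosa26-CreERT2, a tamoxifen-inducible recombinase expressed from a ubiquitously active locus, and a floxed allele of Trrap, which encodes an adaptor of histone acetyltransferase complexes. Fl/+ cultures had 1 floxed Trrap allele and Fl/Fl cultures had 2. The 3 groups of 5 cultures were Fl/+ untreated, Fl/+ given 4-hydroxytamoxifen (4-OHT) and Fl/Fl given 4-OHT. Both Fl/+ groups came from mice 19, 24, 26, 35 and 36, and the Fl/Fl cultures came from mice 27, 28, 29, 37 and 39. By label, 3 of the 5 mice in each group were male and 2 female. Untreated Fl/Fl cultures were not analysed here, so a difference between Fl/Fl and Fl/+ cultures and a difference between these 2 sets of mice cannot be told apart. In Fl/+ cultures 4-OHT itself, active CreERT2 and the loss of 1 Trrap allele cannot be told apart either.

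Hedgehog ligands are lipid-modified proteins that leave the producing cell with the help of Dispatched proteins and bind Patched receptors on the responding cell. Patched without ligand holds back Smoothened, the protein that passes the signal on at the primary cilium, and Smoothened in turn controls whether the GLI transcription factors act as activators or are cut into repressors. Sonic hedgehog maintains stem cells of the adult subventricular zone, and Gli1, Ptch1 and Hhip are widely used as readouts of the pathway because they are themselves induced by it.

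Between 25.7 M and 32.2 M counts were assigned per library. A gene with at most 3 counts was treated as not detected, a floor that covers counting error only and lies at 0.0932 to 0.117 CPM before TMM scaling. CPM are counts per 1000000 assigned counts, here scaled by TMM, which evens out differences in library composition. Trrap, the targeted gene, was at 190 ± 14.3 CPM in Fl/+ untreated, 164 ± 26.5 CPM in Fl/+ 4-OHT and 104 ± 24.2 CPM in Fl/Fl 4-OHT cultures (mean ± SD, n = 5 each). Between Fl/Fl and Fl/+ 4-OHT cultures it fell by 0.64 on the log2 scale (SE 0.16, adjusted p = 0.0115, edgeR's quasi-likelihood test with Benjamini-Hochberg adjustment, used for each adjusted p given here). Reads over the whole gene were counted, so transcripts that lack only the floxed part still contribute. The Fl/Fl culture of mouse 29 had the most Trrap of its group, at 142 CPM, which was above the lowest Fl/+ 4-OHT culture at 138 CPM. The sex-linked genes went against the label in the Fl/Fl culture of mouse 39, which was labelled female and had 9 counts of Xist and 1556 of the Y-linked Ddx3y. The cultures of mouse 36, labelled male, had 160 counts of Xist untreated and 2117 after 4-OHT beside 1295 and 1500 of Ddx3y, whereas the other cultures labelled male had 4 to 16 counts of Xist. Counts of calls are therefore also given without the cultures of mice 36 and 39. The 8 neural stem cell markers, among them Nes, Sox2, Pax6 and Fabp7, were detected in every group, with a summed level of 5750 to 10300 CPM per library. A bulk library cannot tell a change in the number of cells of a type from a change in RNA per cell.

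Dhh, desert hedgehog (ENSMUSG00000023000, GRCm38 chromosome 15, 98891152 to 98898540, minus strand, protein coding), was the member with the largest difference after 4-OHT in Fl/+ cultures. Its level in the untreated cultures of mice 19, 24, 26, 35 and 36 was 6.52, 6.14, 3.81, 8.32 and 3.39 CPM. After 4-OHT the same mice gave 62.6, 47.0, 35.1, 60.0 and 47.8 CPM. In the Fl/Fl 4-OHT cultures of mice 27, 28, 29, 37 and 39 it was 63.6, 51.9, 38.9, 95 and 76.5 CPM. Both groups given 4-OHT lay wholly above the untreated group, and they overlapped each other. The log2 fold change with 4-OHT was 3.17 with a standard error (SE) of 0.26, or 8.97-fold. Within the 5 mice the difference in log2(CPM + 0.5) was 2.78 to 3.63, and Dhh was higher in 5 of 5 mice. After Trrap deletion, meaning Fl/Fl 4-OHT against Fl/+ 4-OHT cultures, the log2 fold change was 0.38 (SE 0.22), the groups overlapped, and the value was 0.19 without the Fl/Fl culture of mouse 37.

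The bases before the start of Dhh are shown because Dhh was the member that was highest after 4-OHT relative to untreated cultures, and those of Hhip because Hhip was at the other end of the order of fold changes. Both are the 250 bases upstream of the start in RefSeq (GRCm38.p6), written 5′ to 3′ on the strand of the gene. Capitals mark the GC box, GGGCGG on either strand, the core of the binding site of Sp1-type factors.
Dhh (chr15:98898541-98898790, minus strand): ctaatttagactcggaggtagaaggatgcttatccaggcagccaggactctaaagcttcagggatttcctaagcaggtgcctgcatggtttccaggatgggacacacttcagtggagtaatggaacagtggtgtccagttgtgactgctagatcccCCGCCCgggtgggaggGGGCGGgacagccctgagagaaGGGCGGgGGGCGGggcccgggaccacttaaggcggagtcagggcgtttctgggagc
Hhip (chr8:80058009-80058258, minus strand): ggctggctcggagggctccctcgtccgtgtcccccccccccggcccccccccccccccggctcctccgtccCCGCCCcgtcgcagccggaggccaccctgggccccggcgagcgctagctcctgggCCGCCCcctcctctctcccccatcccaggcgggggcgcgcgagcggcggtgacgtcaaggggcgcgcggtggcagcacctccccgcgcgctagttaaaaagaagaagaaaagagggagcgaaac
The Dhh window held 4 GC boxes and the Hhip window 2. A promoter window of 300 bases, reaching 50 bases past the start, was found for 7 of the 9 members, all but Gli1 and Disp2. 6 of these 7 windows held a GC box, against 35.7% of all 32851 promoter windows and 67.7% of the 65 windows of the other pathway genes. Sufu, Ptch1 and Gli2 had 1 GC box each and Gli3 had 2, and no GC box was found in the window of Smo. The GLI consensus TGGGTGGTC, read on either strand, was in none of the 7 windows and in 0.253% of all windows. With so low a share, finding none in 7 windows says little. Each of the 7 members had 1 window, and that of Ptch1, at 63565686 to 63565985, lies inside its gene model. These matches are letters in a window and say nothing of binding.

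Disp2, dispatched homologue 2 and a member of the Dispatched family of ligand-releasing proteins (ENSMUSG00000040035, chromosome 2, 118779719 to 118811293, plus strand), was higher at both steps. Its level in the untreated cultures of mice 19, 24, 26, 35 and 36 was 16.2, 15.5, 18.6, 24.0 and 20.3 CPM. After 4-OHT it was 59.7, 54.9, 45.9, 57.2 and 36.7 CPM in the same order. The Fl/Fl 4-OHT cultures of mice 27, 28, 29, 37 and 39 had 79.9, 124, 104, 136 and 86.6 CPM. None of the 3 groups overlapped another. The log2 fold change was 1.43 (SE 0.16) with 4-OHT in Fl/+ cultures and 1.07 (SE 0.17) after Trrap deletion. From untreated Fl/+ to Fl/Fl 4-OHT cultures it was 2.5 (SE 0.17), or 5.67-fold. The difference with 4-OHT within a mouse was lowest in mouse 36, at 0.84, and highest in mouse 19, at 1.85.

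**Figure D1:**
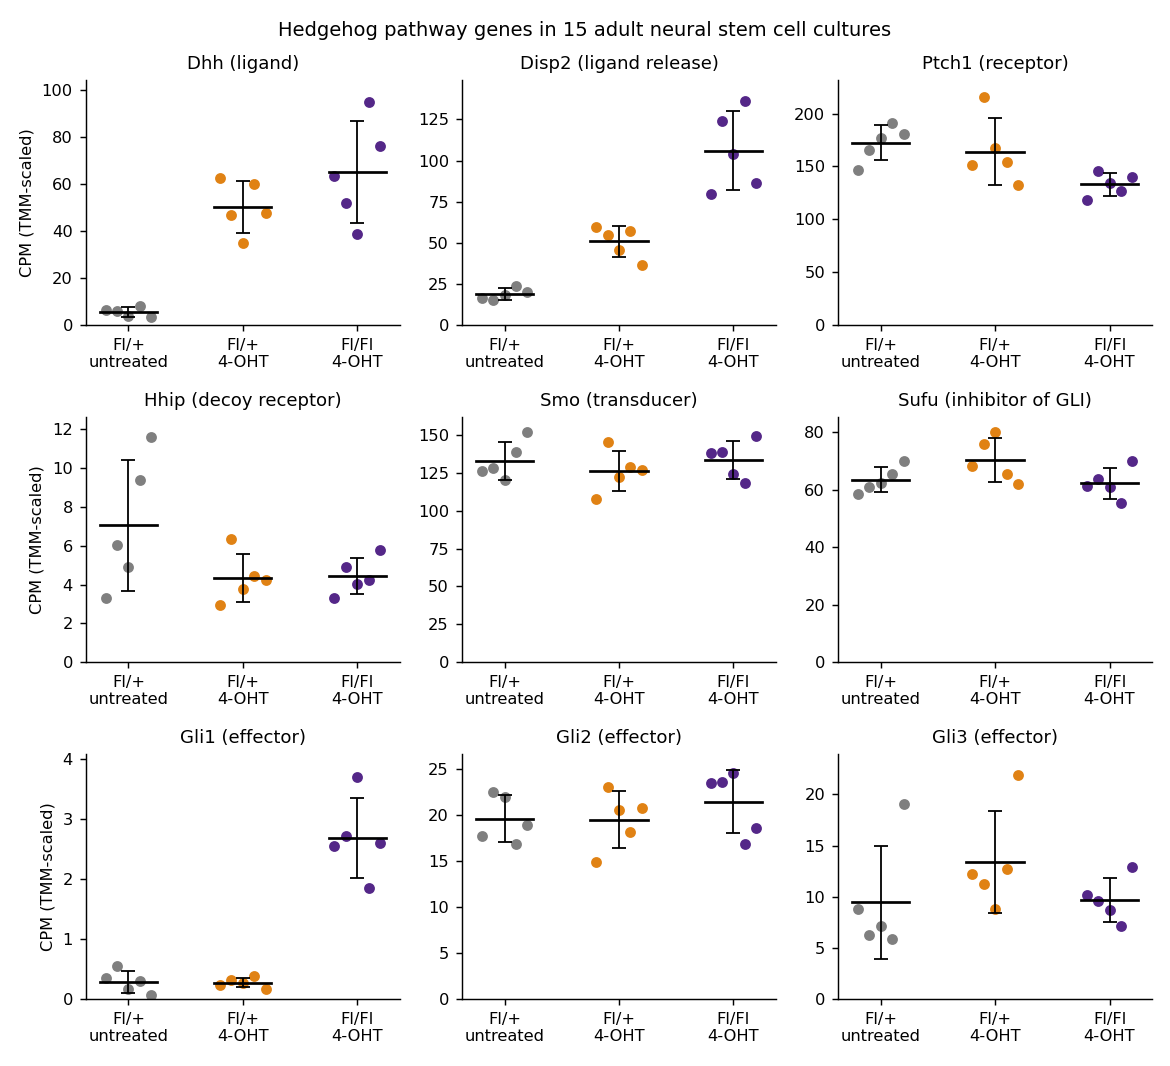
Level of each Hedgehog pathway gene in 15 cultures. The y axis gives TMM-scaled CPM from 0, each point is 1 culture (ordered by mouse number within a group), and the black line and bar give the mean and SD of 5 cultures. Dhh separates the untreated cultures from both 4-OHT groups, Gli1 separates the Fl/Fl cultures from both Fl/+ groups, and Disp2 separates all 3.

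Markers of other cell types differed between the groups as well. The summed level of the 7 oligodendrocyte lineage markers, among them Pdgfra, Cspg4, Sox10, Mbp and Mog, of which Mog was at or below the floor in untreated cultures, was 314 to 893 CPM in untreated, 811 to 1390 CPM in Fl/+ 4-OHT and 876 to 2970 CPM in Fl/Fl 4-OHT cultures. With 4-OHT 5 of these 7 were called higher, beside 7.34% of all genes, among them Pdgfra (log2 fold change 1.49, adjusted p = 0.0201) and Sox10 (1.94, adjusted p = 0.0163), in the same comparison as Dhh and Disp2. After Trrap deletion none of the 7 was called by edgeR's quasi-likelihood test, with 2 at an unadjusted p under 0.05. Of 7 neuron markers 2 fell after Trrap deletion, beside 15.0% of all genes called lower there, and their summed level in Fl/Fl cultures was 563 to 815 CPM against 827 to 1010 CPM in Fl/+ 4-OHT cultures. From untreated to Fl/Fl cultures 6 of 7 fell, beside 15.1% of all genes called lower, with a median log2 fold change of -1.40 over the 7, among them Dcx by 2.34 (adjusted p = 0.000572) and Gad1 by 1.70 (adjusted p = 0.00189). Of 6 astrocyte markers 3 were called with 4-OHT, in both directions, beside 13.8% of all genes. Gfap rose by 3.25 (adjusted p = 0.0283), whereas S100b fell by 1.91 (adjusted p = 0.0187) and Slc1a3 by 0.70 (adjusted p = 0.0113). The summed level of 5 ependymal markers was 27.3 to 62.1 CPM in untreated, 38.6 to 91.4 CPM in Fl/+ 4-OHT and 69.8 to 96.2 CPM in Fl/Fl 4-OHT cultures, with Tmem212 and Pifo at or below the floor in each library. Against untreated cultures Foxj1 rose by 1.09 (adjusted p = 0.00227) in Fl/Fl cultures, in the comparison in which Dhh and Disp2 differed most. Dhh is best known from Schwann cells, and the 5 Schwann cell markers summed to 21.7 to 34.7 CPM in untreated, 26.4 to 41.2 CPM in Fl/+ 4-OHT and 30.0 to 41.3 CPM in Fl/Fl 4-OHT cultures. Most of that was Egr2, which was at 21.8 ± 3.99, 26.5 ± 5.25 and 29.6 ± 2.92 CPM. It rose by 0.46 from untreated to Fl/Fl cultures (adjusted p = 0.0201). Prx, the other of the 2 tested there, did not rise, with means of 4.97, 4.36 and 4.58 CPM and a log2 fold change of -0.10 (adjusted p = 0.811). Pmp2 and Foxd3 were at 0 to 3 counts in every library. Of 5 microglial markers Aif1, Cx3cr1 and Tmem119 were at or below 3 counts in every library, and the sum of the list was 0.0698 to 0.616 CPM in untreated, 0.0791 to 0.507 CPM in Fl/+ 4-OHT and 0.689 to 2.02 CPM in Fl/Fl 4-OHT cultures, without overlap for the last. Of 5 endothelial markers Cdh5 and Cldn5 were at or below 3 counts, and the list summed to 4.64 to 8.53 CPM. The part of these cells in the levels of Dhh, Disp2 and the other pathway genes was not tested. Nkx2-1, a marker of the ventral subventricular zone, was at or below 1 count, while the 3 other ventral markers together varied from 1.69 to 83.3 CPM among untreated cultures.

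Ptch1, the main receptor of Hedgehog ligands (ENSMUSG00000021466, chromosome 13, 63508328 to 63573598, minus strand), was abundant and lower in Fl/Fl 4-OHT than in untreated cultures. Untreated cultures of mice 19, 24, 26, 35 and 36 had 147, 166, 177, 191 and 181 CPM. After 4-OHT they had 151, 216, 167, 154 and 132 CPM. The Fl/Fl 4-OHT cultures of mice 27, 28, 29, 37 and 39 had 118, 146, 134, 127 and 140 CPM. All 5 Fl/Fl cultures were below all 5 untreated cultures, with the closest pair at 146 and 147 CPM, whereas the Fl/Fl and Fl/+ 4-OHT groups overlapped. The log2 fold change was -0.36 (SE 0.089) against untreated cultures, -0.29 (SE 0.12) after Trrap deletion and -0.069 (SE 0.13) with 4-OHT. The value after Trrap deletion rested on single cultures. Without the Fl/+ 4-OHT culture of mouse 36 it was -0.38 and passed the threshold that it otherwise missed, and without that of mouse 24 it was -0.18.

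Hhip, the membrane protein that captures Hedgehog ligands (ENSMUSG00000064325, chromosome 8, 79965851 to 80058006, minus strand), had the widest spread among untreated cultures relative to its mean after Gli1 and Gli3. Its level in mice 19, 24, 26, 35 and 36 was 3.33, 6.04, 4.93, 9.39 and 11.6 CPM untreated and 2.94, 6.34, 3.75, 4.44 and 4.23 CPM after 4-OHT. The Fl/Fl 4-OHT cultures had 3.33 to 5.77 CPM. The groups overlapped in every comparison. The change within a mouse was -1.0 in mouse 35 and -1.35 in mouse 36 in log2(CPM + 0.5), and between -0.35 and 0.064 in the other 3 mice. The log2 fold change was -0.70 (SE 0.33) with 4-OHT, or -0.45 without the untreated culture of mouse 36, and 0.047 (SE 0.22) after Trrap deletion.

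Smo, which encodes Smoothened (ENSMUSG00000001761, chromosome 6, 29735503 to 29761365, plus strand), had a mean of 133 ± 12.8 CPM untreated, 126 ± 13.3 CPM after 4-OHT and 134 ± 12.6 CPM in Fl/Fl 4-OHT cultures. Over all 15 libraries it ranged from 108 to 152 CPM, and the 3 groups overlapped. Its log2 fold change after Trrap deletion was 0.096, with a 95% interval from -0.082 to 0.27. Sufu, which binds GLI proteins and holds them inactive (ENSMUSG00000025231, chromosome 19, 46396896 to 46488804, plus strand), had a mean of 63.5 ± 4.43, 70.3 ± 7.51 and 62.2 ± 5.32 CPM in the same groups. Its range over all libraries was 55.2 to 80.0 CPM. After Trrap deletion its log2 fold change was -0.16, with an interval from -0.34 to 0.012. Neither gene stood apart in any group.

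Gli1, the GLI factor that acts only as an activator and is itself a target of the pathway (ENSMUSG00000025407, chromosome 10, 127329882 to 127341974, minus strand), was close to the floor in all Fl/+ cultures. It had 10, 16, 5, 8 and 2 counts in the untreated cultures of mice 19, 24, 26, 35 and 36, and 7, 10, 7, 11 and 5 counts after 4-OHT. The Fl/Fl 4-OHT cultures of mice 27, 28, 29, 37 and 39 had 82, 80, 113, 48 and 75 counts, or 2.55, 2.72, 3.71, 1.86 and 2.61 CPM. The lowest Fl/Fl culture was above the highest Fl/+ culture, at 0.558 CPM. Gli1 was most abundant in the culture of mouse 29, the Fl/Fl culture with the most Trrap. The log2 fold change after Trrap deletion was 3.27 (SE 0.27), or 9.65-fold, and 3 of the 15036 genes tested had a larger one. Against untreated cultures it was 3.18 (SE 0.41). In both comparisons Gli1 passed the filter on low counts only through the Fl/Fl group, where it is high. With 4-OHT in Fl/+ cultures Gli1 fell below the filter on low counts and was not tested, and it was higher after 4-OHT in 3 of 5 mice. Leaving out each library in turn gave 3.11 to 3.39 after Trrap deletion.

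Gli2, the main GLI activator at the start of a response (ENSMUSG00000048402, chromosome 1, 118834132 to 119053619, minus strand), was at 19.6 ± 2.56 CPM untreated, 19.5 ± 3.09 CPM after 4-OHT and 21.4 ± 3.42 CPM in Fl/Fl 4-OHT cultures. Its log2 fold change after Trrap deletion was 0.15, with an interval from -0.13 to 0.44. Gli3, the GLI factor that is mostly cut into a repressor (ENSMUSG00000021318, chromosome 13, 15463235 to 15730026, plus strand), was set apart by 1 mouse. The cultures of mouse 36 had 19.1 CPM untreated and 21.9 CPM after 4-OHT, while the other untreated cultures had 5.93 to 8.84 CPM and the other Fl/+ 4-OHT cultures 8.81 to 12.7 CPM. Gli3 was higher after 4-OHT in 5 of 5 mice, by 0.19 to 1.04 in log2(CPM + 0.5). Its log2 fold change with 4-OHT was 0.50 (SE 0.35) without pairing and 0.58 (SE 0.16) with the mouse as a block, and in the second fit it passed the threshold. After Trrap deletion it was -0.45 (SE 0.23), and -0.22 without the Fl/+ 4-OHT culture of mouse 36.

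**Figure D2:**
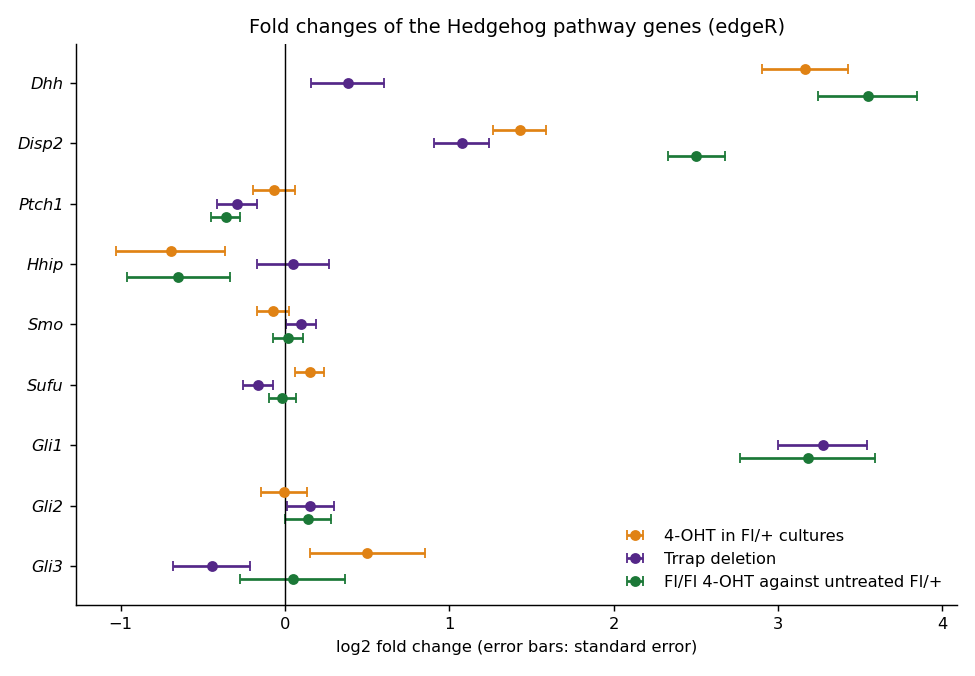
Log2 fold changes of the 9 genes in the 3 comparisons, from edgeR, with standard errors as bars. Dhh lies above 3 in the comparisons of 4-OHT and of Fl/Fl 4-OHT against untreated Fl/+ cultures, Gli1 lies above 3 in both comparisons in which it was tested, and the values of Smo, Sufu and Gli2 lie between -0.2 and 0.2.

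The calls of the fit across all genes, at an adjusted p under 0.05, were as follows for the members. After Trrap deletion 2 of 9 members were called, Gli1 and Disp2, both higher and both without overlap between the groups. Among all genes tested in that comparison 31.7% were called, 16.8% higher and 15.0% lower, and the groups did not overlap for 22.6%. With 4-OHT 2 of the 8 members tested were called, Dhh and Disp2, again higher and without overlap. The shares of all genes tested there were 13.8% called, 7.34% higher, 6.45% lower and 12.0% without overlap. With the mouse as a block Gli3 was called too, making 3 of 8, and 25.7% of all genes were called. Against untreated Fl/+ cultures the Fl/Fl 4-OHT cultures had 4 of 9 members called, Gli1, Dhh and Disp2 higher and Ptch1 lower, and for these 4 the groups did not overlap. The shares of all genes were 30.7% called, 15.7% higher, 15.1% lower and 23.1% without overlap. Since the members were chosen with these contrasts known, nothing is read from these counts. The median log2 fold change of the members tested was 0.096, 0.072 and 0.047 in the 3 comparisons in this order, against 0.017, -0.011 and 0.0025 over all genes tested. Without the cultures of mice 36 and 39 the members called were 2, 3 and 4, beside 23.2%, 10.8% and 26.6% of all genes tested in those fits. The 3 comparisons share libraries, so their values are not independent of each other.

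**Figure D3:**
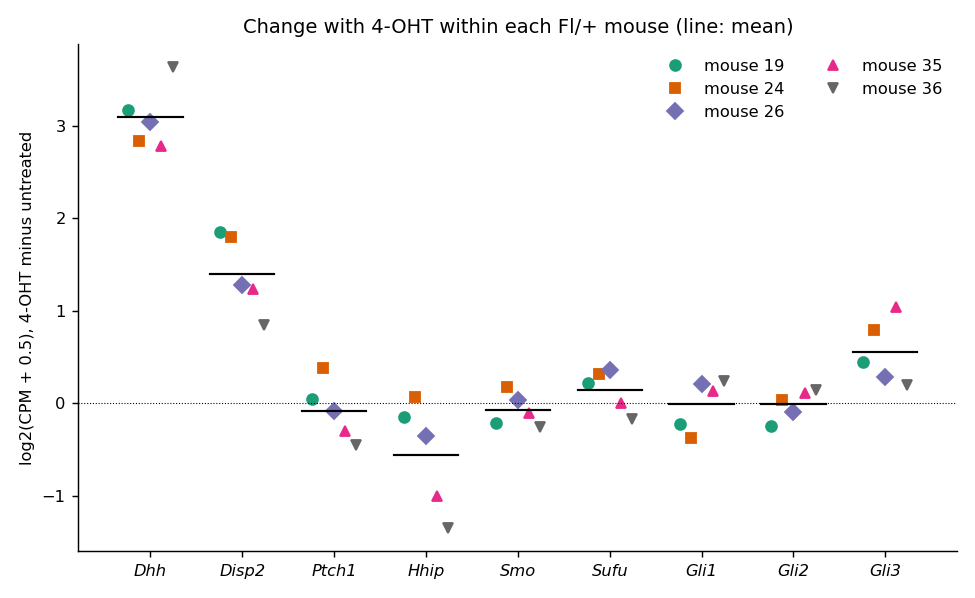
Difference between the 4-OHT and the untreated culture of each of 5 Fl/+ mice, in log2(CPM + 0.5), for the 9 genes. Each symbol is 1 mouse and the line is the mean. Dhh, Disp2 and Gli3 lie above 0 in all 5 mice, and Hhip is lowest in mice 35 and 36.

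Levels of different genes were compared only per length, as CPM per kb of exons, on the exon length of all annotated transcripts together. In untreated Fl/+ cultures the order from the lowest was Gli1, Hhip, Gli3, Dhh, Disp2, Gli2, Sufu, Ptch1 and Smo. Gli1 was at 0.0591 ± 0.0371 and Smo at 23.7 ± 2.28 CPM per kb. From Hhip to Gli2 the ranges of each pair of neighbours in the order overlapped, whereas Gli1, Sufu, Ptch1 and Smo were each separate from their neighbours. Dhh was at 1.28 ± 0.463 CPM per kb before treatment, and at 11.5 ± 2.52 after 4-OHT its range overlapped those of Sufu and Ptch1. In Fl/Fl 4-OHT cultures Dhh at 14.8 ± 4.93 and Disp2 at 11.1 ± 2.5 CPM per kb came next below Smo at 23.8 ± 2.25, and the ranges of Smo and Dhh, Dhh and Disp2, and Disp2 and Ptch1 overlapped. Gli1 there was at 0.538 ± 0.133 CPM per kb, with a range that overlapped that of Hhip at 0.490 ± 0.102 and stayed far below that of Gli2 at 3.12 ± 0.498.

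**Figure D4:**
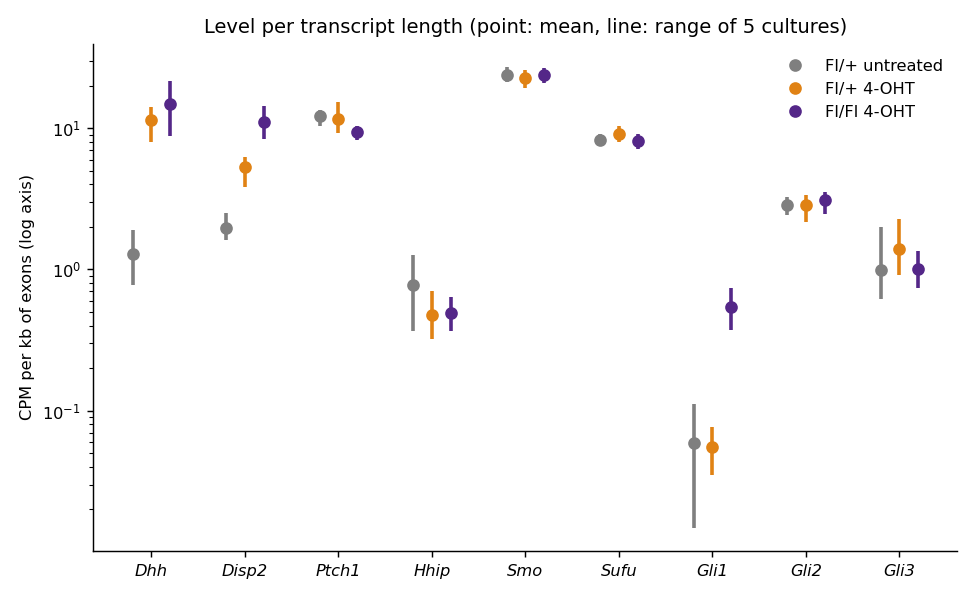
Level per length of the 9 genes in CPM per kb of exons on a log axis. Points are group means and lines the range of 5 cultures. Smo is at the top in each group, and Gli1 in Fl/+ cultures is at the bottom.

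The rest of the pathway was followed with 68 further genes listed by role. After Trrap deletion 21 of the 60 genes tested were called, 12 higher and 9 lower, with a median log2 fold change of -0.0037 against 0.017 over all genes, beside 31.7% called among all genes. Without the cultures of mice 36 and 39 there were 15, beside 23.2% of all genes in that fit. Among the ligand and release genes 2 of 7 were called, both higher. Shh, the ligand of the subventricular niche, had 0.609, 2.28, 1.5, 1.11 and 0.212 CPM in the Fl/+ 4-OHT cultures of mice 19, 24, 26, 35 and 36. In the Fl/Fl cultures of mice 27, 28, 29, 37 and 39 it had 2.86, 3.88, 3.25, 4.57 and 3.44 CPM. Every Fl/Fl culture was above every Fl/+ 4-OHT culture, and Shh rose by 1.66 on the log2 scale (SE 0.45, adjusted p = 0.0172). Hhatl, a relative of the acyltransferase that modifies Hedgehog ligands, had 3 to 7 counts in Fl/+ 4-OHT and 10 to 33 counts in Fl/Fl cultures, and since it passed the filter on low counts only through the Fl/Fl group, its call is not used as support. Ihh, Indian hedgehog, had 1 to 8 counts in every library and was not tested.

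Among the receptors and co-receptors 4 of 9 were called after Trrap deletion, 3 higher, among them Gas1 and Gpc4, and the glypican Gpc1 lower, beside 31.7% of all genes. Gas1, a co-receptor that promotes signalling, was at 98.4 ± 15.8 CPM in Fl/+ 4-OHT and 157 ± 21.3 CPM in Fl/Fl cultures (log2 fold change 0.68, SE 0.13, adjusted p = 0.0025). Gpc4 rose by 0.81 (SE 0.24, adjusted p = 0.0227), a call that was lost without the Fl/Fl culture of mouse 27 or 39 (adjusted p = 0.0542 and 0.0575).

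Among the transducers and regulators 9 of 31 were called after Trrap deletion, 3 higher and 6 lower, beside 31.7% of all genes. The 6 lower were Csnk1e, Gpr161, Gsk3b, Stk36, Dyrk2 and Grk2, and the 3 higher were Spop, Rab23 and Prkar1a. Of these, the call of Grk2 was lost in 7 and that of Prkar1a in 9 of the 10 fits that left out 1 library, with adjusted p up to 0.0855 and 0.114. Gpr161, a ciliary receptor that keeps GLI factors in the repressor form through cAMP, had 43.8, 31.1, 42.0, 36.7 and 42.8 CPM in the Fl/+ 4-OHT cultures of mice 19, 24, 26, 35 and 36. In Fl/Fl cultures it had 19.8, 19.8, 18.1, 18.9 and 19.6 CPM. The Fl/Fl cultures lay close together and wholly below the Fl/+ cultures, and Gpr161 fell by 1.01 on the log2 scale (SE 0.099, adjusted p = 0.000103). Csnk1e, a casein kinase of the group that phosphorylates GLI factors and Smoothened, fell by 1.06 on the log2 scale (SE 0.11, adjusted p = 0.000117) from 213 ± 34.7 to 101 ± 5.66 CPM. Spop, an adaptor that hands GLI factors to a ubiquitin ligase, rose by 0.59 (SE 0.072, adjusted p = 0.000288) from 79.3 ± 5.40 to 118 ± 10.4 CPM.

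Among the listed transcriptional targets 7 of 14 were called after Trrap deletion, 5 higher, among them Hsd11b1, Ccnd1, Bcl2 and Rab34, and 2 lower, Foxm1 and Bmi1, beside 31.7% of all genes. Hsd11b1, a glucocorticoid-activating enzyme that reached the level of the filter in 3 of 5 Fl/+ 4-OHT and 5 of 5 Fl/Fl cultures, rose by 1.69 (SE 0.37, adjusted p = 0.00568) from 0.190 to 1.01 CPM in Fl/+ 4-OHT to 1.29 to 1.66 CPM in Fl/Fl cultures. Ccnd1, which encodes cyclin D1, rose by 0.57 (SE 0.14, adjusted p = 0.0117) from 1710 ± 272 to 2500 ± 413 CPM, with an adjusted p of 0.169 when the dispersion was fitted over all 15 libraries and of 0.0637 without the cultures of mice 36 and 39. Foxm1, a factor of the dividing cell, fell by 0.85 (SE 0.20, adjusted p = 0.00734), and the Polycomb gene Bmi1 fell by 0.55 (SE 0.085, adjusted p = 0.000923). Foxf1, Nkx2-9, Nkx6-1 and Atoh1, which are induced by Hedgehog signals in other tissues, stayed at 0 to 3 counts in each of the 15 libraries. Beside these, the log2 fold changes of the members that are targets were 3.27 for Gli1, -0.29 for Ptch1 and 0.047 for Hhip.

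With 4-OHT in Fl/+ cultures 10 of the 58 further pathway genes tested were called, 7 higher and 3 lower, with a median of 0.063 against -0.011 over all genes and beside 13.8% called among all genes. The count was 18 with the mouse as a block, beside 25.7% of all genes. Without the cultures of mouse 36 it was 4, beside 10.8% of all genes. Scube3, a secreted protein of the family that helps ligand leave the cell, had 0.616, 0.209, 0.595, 1.27 and 0.626 CPM in the untreated cultures of mice 19, 24, 26, 35 and 36. After 4-OHT it had 4.23, 0.887, 2.06, 4.54 and 4.83 CPM in the same order. It was higher in all 5 mice, although the groups overlapped through mouse 24, and the rise was 2.32 on the log2 scale (SE 0.52, adjusted p = 0.0140). Without the cultures of mouse 36 it was 2.11, with an adjusted p of 0.0532, and the calls of Cdon, Boc, Arrb1, Prkacb, Gpc1 and Ift172 were lost too. Hsd11b1 fell by 2.92 on the log2 scale (SE 0.58, adjusted p = 0.00818) from 3.59 ± 2.57 to 0.472 ± 0.319 CPM, opposite to its direction after Trrap deletion. It reached the level of the filter in 5 of 5 untreated and 3 of 5 Fl/+ 4-OHT cultures. Cdon, a co-receptor, rose by 1.09 (SE 0.29, adjusted p = 0.0303), and Boc, its close relative, fell by 0.64 (SE 0.17, adjusted p = 0.0278). Adcy6, an enzyme that makes cAMP, rose by 0.42 (SE 0.081, adjusted p = 0.0072), and its groups did not overlap. These calls of Cdon, Boc, Arrb1, Prkacb, Gpc1 and Ift172 were also lost in 5 to 8 of the 10 unpaired fits that left out 1 library, but with the mouse as a block all 6 were called, with adjusted p from 0.000332 for Cdon to 0.0248 for Arrb1. Cdon, Prkacb and Ift172 were higher and Boc and Gpc1 lower in 5 of 5 mice, and Arrb1 was higher in 4 of 5. Shh had a log2 fold change of -0.034 (SE 0.65, adjusted p = 0.980) with 4-OHT.

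In Fl/Fl 4-OHT relative to untreated Fl/+ cultures 27 of 60 further pathway genes were called, 18 higher and 9 lower, against 30.7% of all genes, with a median of 0.12 against 0.0025. The count without the cultures of mice 36 and 39 was 20, beside 26.6% of all genes in that fit. Scube3 was 6.91-fold higher (log2 fold change 2.79, SE 0.45, adjusted p = 0.00119), and its groups did not overlap. Ccnd1 rose by 1.31 (SE 0.32, adjusted p = 0.0110). Scube1 rose by 1.21 (SE 0.34, adjusted p = 0.0210), and by 0.96 with an adjusted p of 0.0529 without the Fl/Fl culture of mouse 39. Shh rose by 1.63 (SE 0.48, adjusted p = 0.0252) and Jag2 by 1.30 (SE 0.42, adjusted p = 0.0375), and each of these calls was lost in 5 of the 10 fits that left out 1 library, for Shh without untreated mouse 19, 24 or 26 or Fl/Fl mouse 28 or 37, and for Jag2 without untreated mouse 19 or 35 or Fl/Fl mouse 28, 29 or 37. Gpr161 fell by 1.08, Csnk1e by 0.99, Bmi1 by 0.88 and Gpc1 by 0.82 on the log2 scale, each without overlap between the groups. Ift172, a component of ciliary transport, rose by 0.62 (SE 0.13, adjusted p = 0.00458) and Boc fell by 0.59 (SE 0.15, adjusted p = 0.0113).

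**Figure D5:**
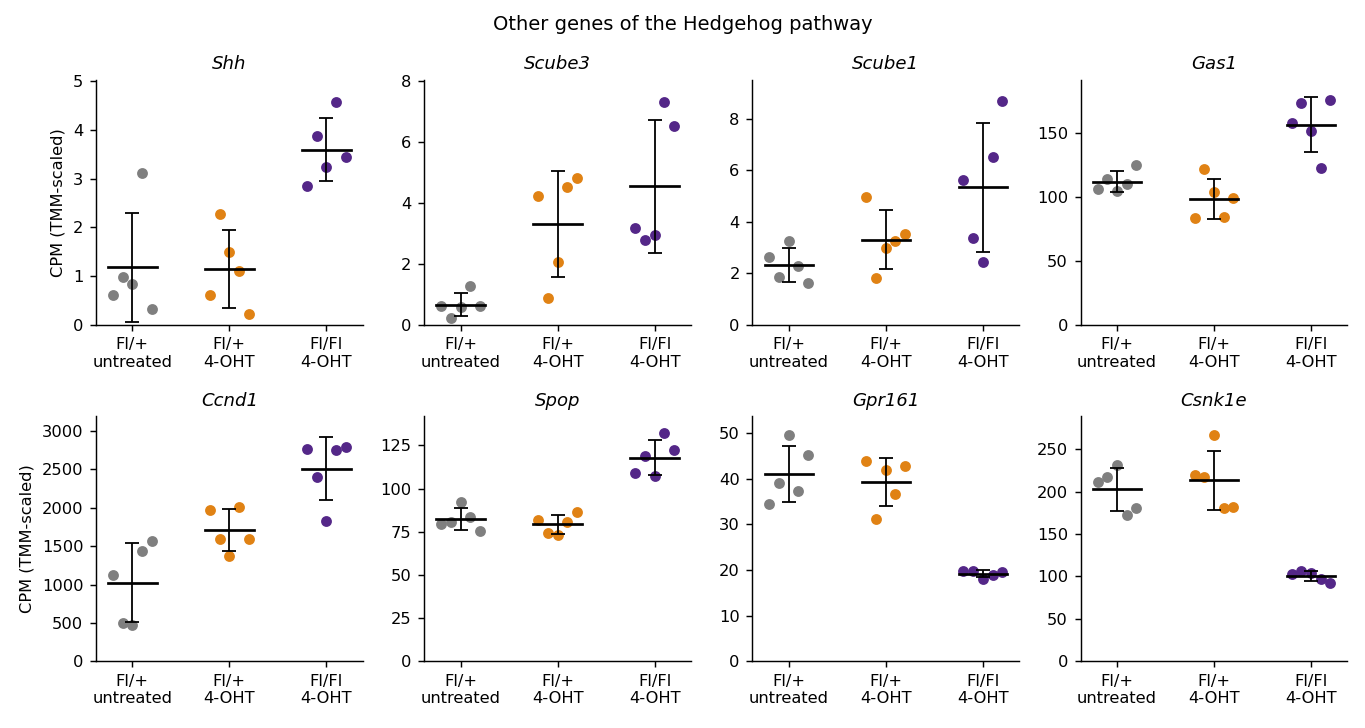
Level of 8 further pathway genes in 15 cultures, as TMM-scaled CPM from 0, with the mean and SD of 5 cultures in black. Gpr161 and Csnk1e in Fl/Fl cultures lie below all Fl/+ cultures and Spop lies above them, while Shh in Fl/Fl cultures overlaps 1 untreated culture, at 3.12 CPM.

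Genes within 20 kb of Gli1, Dhh and Disp2 were looked at after the values of these members had been seen. 9 neighbours passed the filter over 15 libraries. Rhebl1, whose gene model overlaps that of Dhh on the same strand, was at 3.22, 3.01 and 2.10 CPM in the 3 groups and had a log2 fold change of -0.095 (SE 0.25, adjusted p = 0.839) with 4-OHT and of -0.51 (SE 0.17, adjusted p = 0.0408) after Trrap deletion. How reads in the part shared by Rhebl1 and Dhh were divided is not known, so both levels are uncertain to that extent. Lmbr1l on the other side of Dhh was at 19.4, 18.3 and 10.9 CPM, and fell by 0.73 after Trrap deletion (SE 0.11, adjusted p = 0.00101). Kmt2d, further along on the side of Rhebl1, fell by 0.43 after Trrap deletion (SE 0.14, adjusted p = 0.0369). The long noncoding RNA 5730414N17Rik between Kmt2d and Rhebl1 fell by 1.02 with 4-OHT (SE 0.23, adjusted p = 0.0138), opposite to Dhh, and rose by 1.18 after Trrap deletion (SE 0.16, adjusted p = 0.000408). Gm49442, an antisense RNA inside Dhh that was counted on the opposite strand, had 1 to 6 counts in untreated, 5 to 16 in Fl/+ 4-OHT and 11 to 35 in Fl/Fl cultures. Dhh itself had 92 to 216, 888 to 1850 and 1187 to 2454 counts in these groups, and how well the strands were kept apart was not tested. Gm49442 passed the filter on low counts only through the Fl/Fl group, so no test is given. Ccdc9b, which lies upstream of Disp2 on the opposite strand, rose with 4-OHT by 0.90 (SE 0.14, adjusted p = 0.00237) from 13.2 to 24.7 CPM, and Knstrn on the other side of Disp2 had 0.38 (SE 0.23, adjusted p = 0.295). Mars, the neighbour of Gli1, fell by 0.33 after Trrap deletion (SE 0.086, adjusted p = 0.0138), while Gli1 was higher.

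Gli1 was also compared with 13331 genes over the 15 libraries by the correlation of log2(CPM + 0.5), as a description in which the difference between the groups enters. The 5 most similar genes were Nit1, Fam229b, Tctn1, Armc9 and Josd2, with r of 0.95 each, and within the groups r was 0.81, 0.67, 0.75, 0.26 and 0.73. The 5 most opposite were Ttl at -0.98, Kctd10 at -0.98 and Raph1, N4bp2 and Gpr161 at -0.96 each. Within the groups these had -0.88, -0.56, -0.42, -0.33 and -0.52. Gpr161 was also among the pathway genes that fell after Trrap deletion. The same difference between the groups enters its r with Gli1, so its place in this order is not a separate observation. Dhh had r of 0.53 with Gli1 over the 15 libraries and -0.012 within the groups, and Disp2 had 0.76 and -0.20. Dhh and Disp2 had r of 0.89 with each other over the 15 libraries and 0.21 within the groups.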

How the data were processed

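The authors prepared stranded mRNA libraries, pooled all 15 of them on common lanes and read them from a single end. What they deposited is 1 table of raw counts, made with STAR 2.5.4b on GRCm38 and featureCounts 1.5.0 in stranded mode on an Ensembl annotation. Reads with several mapping places were left out, and PCR copies were counted. The table held 53801 genes, of which 53620 matched GENCODE M21 for symbols and exon lengths.

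The members and lists were chosen with earlier results of these data known. Each comparison was fitted over all genes of its 10 libraries with the quasi-likelihood test of edgeR 4.0.16 (R 4.3.3), after TMM scaling and filterByExpr at a minimum count of 10. P-values were adjusted by Benjamini-Hochberg and called under 0.05. This fit was checked on simulated counts with known fold changes. CPM uses TMM over 15 libraries. Named pathway genes are the called genes, at most the 12 with the largest absolute log2 fold change per comparison, and others were named after their values were seen. P-values measure the spread between cultures, each from a mouse of its own within a group.

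Both Fl/+ groups share their 5 mice. Deviations from the group means correlated between cultures of the same mouse with r of 0.156 to 0.626 over 15435 genes, so 1 alternative fit had the mouse as replicate block. Other alternatives were DESeq2 1.42.0, other scalings, filters and dispersions, labelled sex and leaving out libraries. Omitting the cultures of mice 36 and 39 was added after the data had been seen. The labels and the methods differ on the dose and on the duration of 4-OHT, which are not given here. Some genes of the lists enter the counts and sums but are not reported here by name.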

Additional observations from a re-analysis of the deposited data

Results flagged for a closer look

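Of 27 sets of 5 cultures (9 genes in 3 groups), 1 held a culture that stood apart by Dixon's ratio at the 95% level, and chance alone marks about 1 in 20 such sets. Gli3 was at 19.1 CPM in the untreated culture of mouse 36, and the gap to the next culture, at 8.84 CPM, took 0.779 of the range of the group. The 4-OHT culture of the same mouse was the highest of its group as well, at 21.9 CPM. Without the untreated culture of mouse 36 the log2 fold change of Gli3 with 4-OHT was 0.92 (SE 0.26, adjusted p = 0.0342, edgeR's quasi-likelihood test with Benjamini-Hochberg adjustment), and without the 4-OHT culture of mouse 36 it was 0.26 (SE 0.34, adjusted p = 0.669). Both cultures of this mouse also carried counts of Xist beside Y-linked genes. The part of that in the level of Gli3 was not tested.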

How the results depend on the processing

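With at least 10 counts in every library Gli1 was no longer tested, which left 1 member called after Trrap deletion. With the mouse as a replicate block 3809 genes, 18 further pathway genes and 3 members were called with 4-OHT. Without the block these were 2044, 10 and 2. With labelled sex as a covariate 16 pathway genes were called, and the number over all genes in that fit is not given here. Without the cultures of mouse 36 there were 4 pathway genes, beside 10.8% of all genes. Leaving out each library in turn gave 1271 to 2522 genes and 5 to 11 pathway genes with 4-OHT, the lowest of both without the Fl/+ 4-OHT culture of mouse 19. Leaving out the Fl/+ 4-OHT culture of mouse 35 also moved both counts by over 1.5 times, to 1311 and 6, and 6 pathway genes were left without that of mouse 36 or the untreated culture of mouse 19, 26 or 35. The counts were 17 to 21 pathway genes after Trrap deletion, beside 3772 to 4734 genes in all. Against untreated cultures they were 23 to 28, beside 3700 to 4735 genes in all. Genes with small log2 fold changes turned direction. Gli2 with 4-OHT was at 0.045 on library size alone, at 0.0090 with the strict filter and from -0.061 to 0.088 with libraries left out. Sufu against untreated cultures was at 0.076 on library size alone and from -0.060 to 0.023 with libraries left out. With libraries left out Hhip after Trrap deletion was at -0.079 to 0.21, Ptch1 with 4-OHT at -0.18 to 0.011, and against untreated cultures Smo was at -0.021 to 0.072 and Gli3 at -0.086 to 0.47. Without mice 36 and 39 Hhip was at -0.084 after Trrap deletion and Ptch1 at 0.014 with 4-OHT. Scaling by library size alone made 1396 of 2108 called genes higher with 4-OHT (66.2%, against 53.2% with TMM) and 3150 of 4753 against untreated cultures (66.3%, against 51%). By Spearman's correlation 1 of the 5 genes most like Gli1 was the same. With 1 mismatch allowed the GLI consensus was still in 0 member windows, beside 6.74% of all windows. Of 1517 values of single genes under an alternative, 1372 kept their direction and call, 118 lost the call, 5 gained it and 22 turned direction, and the cause was not tested. Pseudocounts of 0.1 and 2 CPM moved the mean change within mice by less than 1 SD of the mice for each of the 9 members, and for Gli1 the value at 0.1 CPM was 0.050 against -0.0069. The level of Gli1 in Fl/+ cultures rests on 2 to 16 counts per library, which limits its precision.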
